A study of Homo sapiens with 32 samples.

Results

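After 7 days with the mTOR inhibitor INK128, most genes called in both A549 and SK-MEL-147 cells moved the same way, but several p53 targets, mTOR regulators and amino acid transporters rose in one line and fell in the other. SESN1 and SESN2 count both as p53 targets and as mTOR regulators. Several inflammatory and metallothionein genes rose in A549 without a called change in SK-MEL-147. A549 is a human lung adenocarcinoma line and SK-MEL-147 a human melanoma line. The comparison was the difference of the 2 responses, that is, the log2 change of SK-MEL-147 (INK128 minus control) minus the log2 change of A549 (INK128 minus control). A positive difference therefore stands for a higher response in SK-MEL-147. It was tested for every gene that passed the count filter, and the genes described are those with an adjusted p under 0.05, here 2883 of 20650 genes tested (14%). All adjusted p-values come from edgeR's quasi-likelihood test with Benjamini-Hochberg adjustment over those 20650 genes.

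The series holds 32 RNA-seq libraries, of which 16 belong to these groups: A549 control, A549 with INK128 at 200 nM, SK-MEL-147 control and SK-MEL-147 with INK128 at 100 nM, with 4 libraries each. Both lines grew in DMEM with 10% FBS, and fresh medium with the inhibitor was given every 3 days; no vehicle is named for the controls. Line and dose changed together, so an effect of the dose and an effect of the line cannot be told apart. The A549 libraries numbered 2 and 2-2 share a replicate number and were summed, which gave n = 3 in each A549 group and n = 4 in each SK-MEL-147 group. The labels do not say that replicates came from separate cultures, so the p-values measure only the spread between these samples. The series text names SK-Mel-103 as the melanoma line given INK128, whereas the sample labels name SK-MEL-147, and the labels were followed. In the SK-MEL-147 INK128 group, 0 genes were on in that group alone and 0 were off in it alone, relative to every other SK-MEL-147 group. Between the untreated A549 and SK-MEL-147 groups, 306 and 93 genes met a looser form of that rule. No library is labelled SK-Mel-103, so these counts cannot tell which melanoma line was given INK128.

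INK128, also called sapanisertib, blocks the kinase site of mTOR and so acts on both mTOR complexes. mTOR complex 1 drives protein, ribosome, lipid and nucleotide synthesis when amino acids and growth factors are present, and complex 2 activates AKT, which keeps FOXO transcription factors out of the nucleus. Deep mTOR inhibition slows growth and division without killing the cells, and the labels call the resulting condition a diapause-like state, after the pause of early embryos. DDIT4 and the sestrins, which appear below, are proteins that restrain mTOR complex 1 under stress. DDIT4, SESN1 and SESN2 are themselves transcriptional targets of p53 or ATF4, and SESN3 is counted below as a FOXO target.

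Summed depth was 25610444 to 64427427 counts per sample. Some libraries stood apart. A549 library 2-2 lay closer to library 3 (SD of log2 ratios 0.208 in the controls and 0.237 with INK128) than to library 2 (0.543 and 0.666), so the A549 replicates may hold fewer independent samples than their number. SK-MEL-147 INK128 replicate 1 differed from the other 3 by 0.608 to 0.695, against 0.285 to 0.421 among those 3. A549 INK128 replicate 1 carried transcripts of the melanoma line. Of 130 genes at 5 CPM or more in every SK-MEL-147 control and under 0.1 CPM in every A549 control library, 79.2% exceeded 0.2 CPM in that library, and their summed level was 3.80% of the SK-MEL-147 control level. The other A549 INK128 libraries had 2 such genes each and 0.111 to 0.130% of that level. In the reverse direction, 9 to 16 of 303 A549 genes exceeded 0.2 CPM in the SK-MEL-147 INK128 libraries, at 0.0796 to 0.123% of the A549 control level. Of the 130 SK-MEL-147 genes, 16 were called lower in the difference with all samples and 6 without that A549 library. Without it the differences of RPS27A, EIF4A2, EIF2S3 and NUPR1 lost their call (adjusted p = 0.0660, 0.0602, 0.0919 and 0.0634 by edgeR), as did those of IFI44, MX2, IL1A, MT1F and TM7SF2. In the same fit the A549 responses of CDKN1B, FDFT1, PIK3IP1, SQLE and TNFRSF10B were no longer called (adjusted p = 0.153, 0.107, 0.146, 0.0783 and 0.102 by edgeR), whereas the rises of ETV4 and GALC (0.0367 and 0.0231) and the falls of GDF15 and IGFBP6 (0.0151 and 0.0351) in A549 were.

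Both lines kept their lineage markers in part. SOX10, a regulator of the melanocyte lineage, and the neural crest receptor NGFR reached 646 and 412 CPM in SK-MEL-147, while the pigment genes TYR and MLANA stayed at or below 0.126 CPM in every sample. PAX3, RAB27A and AXL also peaked higher in SK-MEL-147, whereas MITF and MC1R peaked higher in A549, as did TFAP2A in controls. MITF reached 22.36 CPM in A549 controls and 21.46 CPM with INK128, against 13.68 and 5.949 CPM in SK-MEL-147. The MITF difference was called lower in all 27 alternatives, at -1.18 to -0.91. Among the epithelial genes, CDH1, KRT7, KRT8 and KRT18 peaked higher in A549, whereas CLDN4, KRT80 and, at a low level, ESRP2 peaked higher in SK-MEL-147. CLDN4 and KRT80 reached 103.8 and 432.1 CPM in SK-MEL-147, against 5.94 and 167.7 CPM in A549. These marker levels are CPM on unscaled library totals. Of 21 melanocyte and melanoma state genes, 8 were below 1 CPM in every sample, as were 5 of 25 epithelial, 10 of 13 leukocyte and 6 of 10 fibroblast genes. The summed epithelial list ran from 11480 to 15341 CPM in A549 controls and from 6159 to 7386 CPM in A549 INK128 samples. In SK-MEL-147 its sum was 587 to 909 CPM in controls and 449 to 848 CPM with INK128. The mitochondrial genome took 7.70% ± 0.518 (SD, n = 3) of the counts in A549 controls and 13.2% ± 1.08 (n = 3) with INK128, with an exact permutation p of 0.1, the smallest that 3 against 3 allows. In SK-MEL-147 the share was 2.72% ± 0.398 (n = 4) and 3.70% ± 0.907 (n = 4), exact permutation p = 0.0571. With the mitochondrial genome left out of the scaling, 2819 genes were called in the difference, against 2883 with it. Of the 2819, 2801 were called in both fits. The median difference over all genes tested was -0.07 without the mitochondrial genome and -0.08 with it. Any other part of these shares in the gene-level differences was not tested. In such bulk samples, fewer cells of a type and less RNA per cell cannot be told apart.

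Each line responded broadly. In A549, 8631 genes were called (41.8%), of which 5012 rose (24.3%) and 3619 fell (17.5%). In SK-MEL-147, 11273 were called (54.6%), of which 5997 rose (29%) and 5276 fell (25.5%). Of these, 3026 rose in both lines and 2549 fell in both, whereas 221 rose in A549 and fell in SK-MEL-147 and 143 did the reverse. The difference was higher in SK-MEL-147 for 1338 genes (6.48%) and lower for 1545 (7.48%), and 1648 of the 2883 differed by more than 1 log2 unit. The median difference over all genes tested was -0.08. Scaling by library size alone moved that median by 0.11 log2 and turned the split into 1677 higher and 1078 lower. Among the 10921 genes that reached 5 CPM in the higher group of each line, 1939 were called (17.8%), and over those genes the 2 responses had a Pearson r of 0.68, a description across genes, which are not independent replicates.

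**Figure D1:**
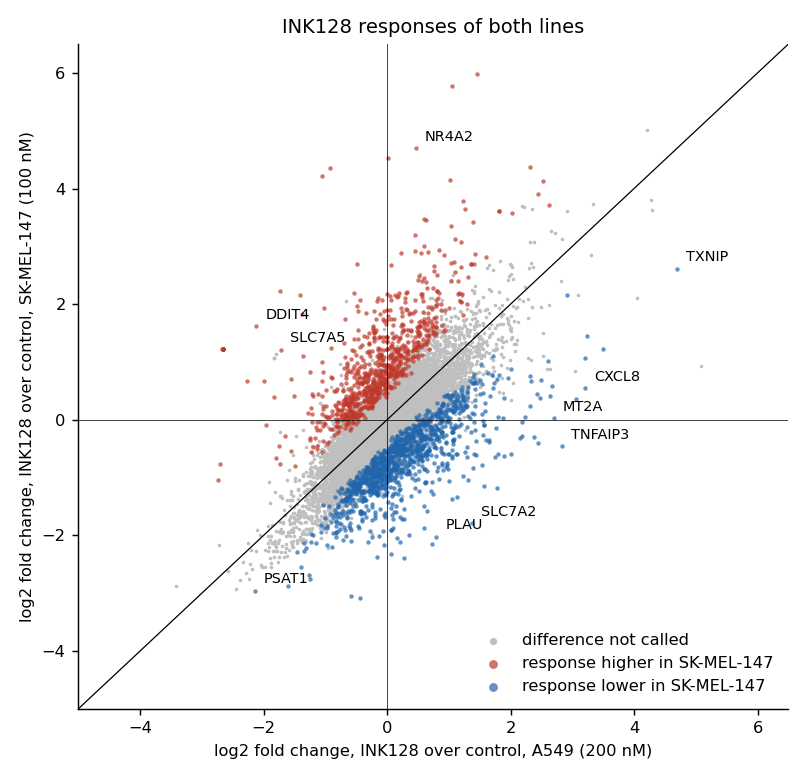
Each point is 1 of the 10921 genes at 5 CPM or more in the higher group of both lines, at its log2 fold change with INK128 in A549 (x axis) and in SK-MEL-147 (y axis); red and blue mark genes whose difference was called higher or lower in SK-MEL-147, grey the rest, and the diagonal marks equal responses. Most points follow the diagonal, with DDIT4 and SLC7A5 in the upper left and PLAU and SLC7A2 in the lower right.

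Of 1785 called protein-coding genes at that level in both lines, most had a called response of their own in only one line. In SK-MEL-147, 387 rose and 484 fell with no call in A549, and in A549, 218 rose and 127 fell with no call in SK-MEL-147. Opposite responses were rarer: 78 genes rose in SK-MEL-147 and fell in A549, and 127 did the reverse. Genes moving the same way made up 165 that rose in both, 114 of them further in SK-MEL-147, and 187 that fell in both, 170 of them further in SK-MEL-147. The remaining 12 were called in neither line alone.

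DDIT4 and the 3 sestrin genes, whose products restrain complex 1, had opposite responses in the lines. DDIT4 (chr10:72273920-72276036), also called REDD1, which acts through the TSC complex to lower mTOR complex 1 activity, stood at 134, 118 and 140 CPM in A549 controls and at 39.2, 23.1 and 28.4 CPM with INK128. In SK-MEL-147 it stood at 14.9, 15.3, 12.3 and 23.5 CPM in controls and at 25.6, 72.6, 52.5 and 52.6 CPM with INK128. The groups did not overlap in either line: DDIT4 fell by 2.12 log2 in A549 and rose by 1.62 in SK-MEL-147, a difference of 3.74 ± 0.41 (SE; adjusted p = 7.62e-05). SESN2 (chr1:28259527-28282491), a sestrin that senses leucine and holds mTOR complex 1 down, measured 13.9, 11.2 and 12.01 CPM in A549 controls against 6.10, 4.45 and 5.05 CPM with INK128. In SK-MEL-147 the controls held 26.8, 20.4, 11.8 and 12.8 CPM and the INK128 samples 25.4, 39.4, 27.7 and 35.4 CPM. The A549 groups were apart, and the SK-MEL-147 groups overlapped through replicate 1 of each; the difference was 2.09 ± 0.36 (adjusted p = 0.00161).

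Across the 26 listed genes of the mTOR pathway, 5 differences were higher in SK-MEL-147 and 3 lower (30.8% called, all genes 14%). The list median was 0.13. The higher ones were DDIT4, SESN1, SESN2, SESN3 and AKT1S1, the last a subunit also called PRAS40 that inhibits complex 1. SESN3 stayed below 1.08 CPM on average in 3 of the 4 groups. RICTOR, the defining subunit of complex 2, rose in both lines and more in A549, from 52.6 ± 1.73 to 109.6 ± 14.4 CPM there and from 48.6 ± 5.47 to 65.5 ± 5.09 CPM in SK-MEL-147 (difference -0.63 ± 0.17, adjusted p = 0.0196). The RICTOR difference lost its call without A549 INK128 replicate 3 (adjusted p = 0.0542), without both replicate 1 samples of SK-MEL-147 (0.0536), with library size alone (0.0621), with no filter (0.104) and with all 8 groups in 1 fit (0.144). The difference for the kinase gene MTOR itself was smaller than its SE (-0.00 ± 0.19) and was not called. DEPTOR, an inhibitory subunit of both complexes, rose in both lines, by 0.90 log2 in A549 and 1.68 in SK-MEL-147, with a difference of 0.78 ± 0.39 that was not called (adjusted p = 0.202); it was called without SK-MEL-147 INK128 replicate 1 (0.99, adjusted p = 0.0427). EIF4EBP1, the translation repressor that mTOR inactivates, fell by 0.87 log2 in A549 and by 1.00 in SK-MEL-147. The number of higher calls in the list was 8 without SK-MEL-147 INK128 replicate 1, and the number of lower calls 5 without it and 0 without A549 INK128 replicate 3 or with library size alone.

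Upstream, PI3K regulators also responded unequally. INPP4B, a lipid phosphatase that limits PI3K signalling, rose from 14.7 ± 3.84 to 30.4 ± 1.86 CPM in A549 and fell from 62.5 ± 10.9 to 39.6 ± 5.27 CPM in SK-MEL-147 (difference -1.71 ± 0.24, adjusted p = 0.000466). PIK3R3, a regulatory subunit of PI3K, fell from 2.84 ± 0.185 to 0.317 ± 0.0875 CPM in A549 and measured 20.7 ± 1.65 and 18.9 ± 7.94 CPM in SK-MEL-147 (difference 3.00 ± 0.50, adjusted p = 0.00141). Of the 22 listed receptors and adaptors, 5 differences were higher and 2 lower (31.8% called, all genes 14%). The higher ones were 3 without A549 control replicate 1 or A549 INK128 replicate 2. The lower ones were 1 without A549 control replicate 1 or 2, or without A549 INK128 replicate 2 or 3. They were also 1 without SK-MEL-147 control replicate 2 or 3. IRS2 and INSR had differences of -0.09 ± 0.33 and 0.38 ± 0.71 that were not called (adjusted p = 0.904 and 0.786).

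Most called differences among p53 targets were higher in SK-MEL-147. p53 is a stress-activated transcription factor, and its targets stop the cell cycle, repair DNA or prepare cell death. Of 25 listed targets, all tested, 13 had a higher response in SK-MEL-147 and 1, PLK2, a lower one, against 6.48% and 7.48% of all genes. The median difference was 1.11 log2, against -0.08 over all genes. In SK-MEL-147 16 of the 25 rose and 2 fell, whereas in A549 2 rose and 10 fell, and 7 moved in opposite directions, each called in its own line: BAX, SESN1, SESN2, DDB2, FDXR, TNFRSF10B and TIGAR. The A549 fall of TNFRSF10B was not called without A549 INK128 replicate 1 (adjusted p = 0.102). The higher calls numbered 12 to 17 when any 1 sample was left out, 12 with A549 libraries 2-2 and 3 summed, 16 with the replicate block and 19 without replicate 1 of both SK-MEL-147 groups.

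**Figure D2:**
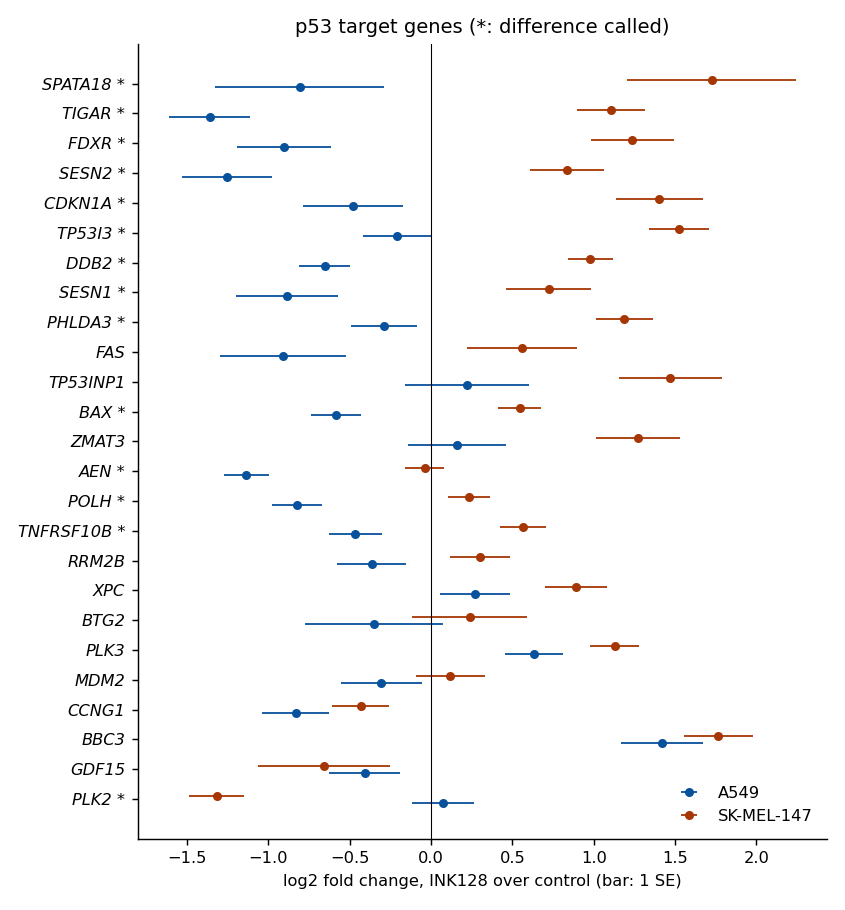
The 25 listed p53 targets, ordered by the difference between lines, with the log2 fold change with INK128 in A549 (blue) and in SK-MEL-147 (brown); bars are 1 SE from the fit and stars mark called differences. In the upper part of the plot the SK-MEL-147 points lie to the right of 0 and most A549 points to the left, and at the bottom PLK2 has the reverse order.

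TIGAR (chr12:4307763-4354593), a phosphatase that diverts glucose toward the pentose phosphate pathway, held 18.01, 12.1 and 14.8 CPM in A549 controls and 8.79, 4.82 and 3.97 CPM with INK128. In SK-MEL-147 it held 15.5, 12.7, 13.8 and 11.01 CPM in controls and 26.0, 34.2, 28.3 and 25.6 CPM with INK128. From similar control levels the lines moved apart with no overlap between groups, and the difference was 2.46 ± 0.32 (adjusted p = 0.000286). BAX (chr19:48954815-48961798), which permeabilises the mitochondrial outer membrane in apoptosis, measured 160, 148 and 137 CPM in A549 controls and 116, 93.2 and 87.3 CPM with INK128. In SK-MEL-147 the values were 163, 147, 122 and 112 CPM in controls and 225, 207, 178 and 182 CPM with INK128. Again no group overlapped within a line, and the difference was 1.13 ± 0.20 (adjusted p = 0.00228). CDKN1A (chr6:36676460-36687339), the gene of p21, a brake on cyclin-dependent kinases, rose in SK-MEL-147, where controls held 506, 389, 245 and 211 CPM and INK128 samples 597, 1109, 897 and 972 CPM. In A549 it held 118, 94.5 and 111 CPM in controls and 107, 65.6 and 59.5 CPM with INK128, overlapping groups with no called change. The CDKN1A difference was 1.88 ± 0.41 (adjusted p = 0.00667).

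FDXR, DDB2, PHLDA3 and TP53I3 had differences of 2.14 ± 0.39, 1.63 ± 0.21, 1.48 ± 0.27 and 1.74 ± 0.28 log2, with adjusted p between 0.000242 and 0.00232; these genes serve iron-sulphur cluster formation, DNA damage recognition, AKT inhibition and oxidative stress. They were singled out after their values were seen. MDM2, the ubiquitin ligase that degrades p53 and is one of its targets, had a difference of 0.42 ± 0.33 that was not called (adjusted p = 0.43). GDF15, BBC3 and CCNG1 were not called either. PLK2, a polo-like kinase, fell in SK-MEL-147 from 214.0 ± 65.9 to 85.8 ± 9.21 CPM and measured 208.2 ± 5.09 and 219.2 ± 2.30 CPM in A549 (difference -1.39 ± 0.25, adjusted p = 0.00234).

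Other cell cycle brakes and drivers differed in size more than in direction. CCND3 (chr6:41934933-42050357), which encodes the G1 cyclin D3, fell in A549 from 259, 318 and 404 CPM to 67.5, 39.4 and 44.1 CPM, and in SK-MEL-147 from 52.3, 49.8, 61.8 and 56.0 CPM to 28.3, 30.7, 40.02 and 30.1 CPM. The groups were apart in both lines, and the fall was 1.93 ± 0.27 log2 larger in A549 (adjusted p = 0.000392). CCND1, cyclin D1, fell in A549 from 383.4 ± 53.7 to 234.1 ± 15.4 CPM and measured 493.4 ± 62.2 and 589.5 ± 124 CPM in SK-MEL-147, with no call there (difference 0.97 ± 0.23, adjusted p = 0.0119; adjusted p = 0.071 with all 8 groups of the series in 1 fit). CDKN1B, which encodes p27, rose in both lines, by 0.60 and 0.93 log2, and its difference was not called (0.32 ± 0.27, adjusted p = 0.473). Of 38 proliferation genes, 37 fell in A549 and 38 in SK-MEL-147, and 2 differed (5.26%, all genes 14%): KIF20A and CDC25C fell further in SK-MEL-147. That count was 7 with the replicate block, 5 without SK-MEL-147 control replicate 1 and 1 without A549 control replicate 3 or A549 INK128 replicate 2, when KIF20A was lost; neither KIF20A nor CDC25C was called with all 8 groups in 1 fit. MKI67, the proliferation marker, fell by 1.68 log2 in A549 and by 1.94 in SK-MEL-147 (difference -0.26 ± 0.21, adjusted p = 0.443).

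Amino acid handling also split. ATF4 is the transcription factor of the integrated stress response, and mTOR complex 1 promotes its translation. Of 27 tested ATF4 targets, 17 fell and 2 rose in A549, and 13 fell and 7 rose in SK-MEL-147. The difference was higher for 7, DDIT4, SESN2, CEBPB, NUPR1, SLC7A5, SLC3A2 and ALDH1L2, and lower for 1, PSAT1 (29.6% called, all genes 14%). The list median was 0.20, and the lower calls were 2 without SK-MEL-147 control replicate 1 or INK128 replicate 3 or 4. DDIT4 and SESN2 are also in the mTOR list. SESN1 and SESN2 are in both the mTOR and p53 lists, and SESN1 and SESN3 are FOXO targets too, so the counts of these lists overlap. The higher calls numbered 5 to 7 when any 1 sample was left out and 10 without replicate 1 of both SK-MEL-147 groups.

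SLC7A5 (chr16:87830023-87869488), the LAT1 transporter of leucine and other large neutral amino acids, fell in A549 from 2326, 2207 and 2685 CPM to 590, 838 and 765 CPM. In SK-MEL-147 it stood at 35.9, 50.4, 29.6 and 37.3 CPM in controls and at 32.4, 155, 82.6 and 85.2 CPM with INK128. Replicate 1 of the SK-MEL-147 INK128 group lay within the control range and the other 3 above it; the difference was 2.93 ± 0.49 (adjusted p = 0.00141). Its partner SLC3A2, the heavy chain needed to bring LAT1 to the membrane, fell by 1.21 log2 in A549 and was not called in SK-MEL-147 (0.10 log2), a difference of 1.31 ± 0.18 (adjusted p = 0.000329). SLC43A2, which encodes LAT4, another carrier of large neutral amino acids, had opposite responses at low levels, from 11.7 ± 1.51 to 3.09 ± 1.06 CPM in A549 and, in SK-MEL-147, from 0.942 ± 0.343 to 2.79 ± 0.900 CPM. SLC7A2, a carrier of arginine and other cationic amino acids, moved the other way. It held 19.8, 12.1 and 13.3 CPM in A549 controls and 47.4, 27.8 and 42.6 CPM with INK128, and in SK-MEL-147 13.8, 15.6, 12.8 and 11.9 CPM in controls and 4.53, 3.82, 2.89 and 4.34 CPM with INK128. No groups overlapped within a line, from control levels that were alike, and the SLC7A2 difference was -3.17 ± 0.30 (adjusted p = 5.12e-05). Of 22 tested amino acid transporters, 4 differences were higher and 4 lower (36.4% called, all genes 14%).

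**Figure D3:**
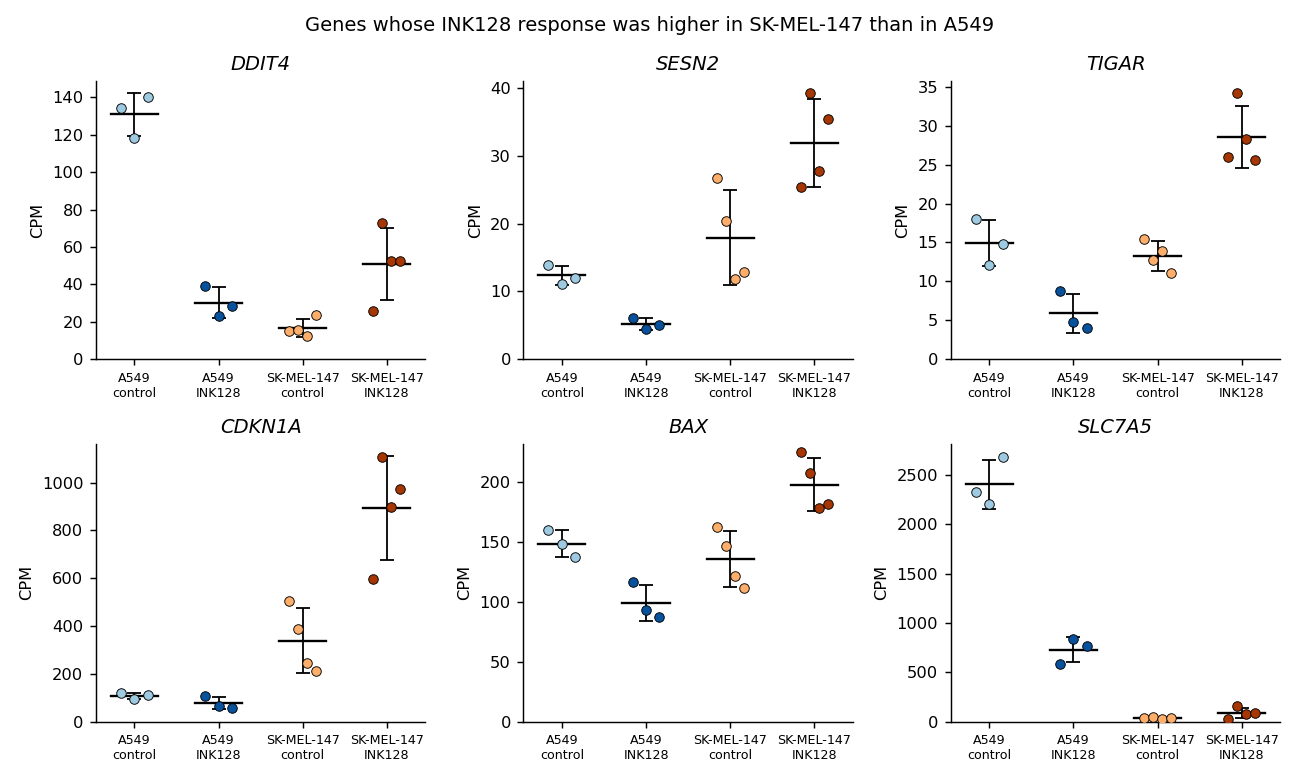
CPM of 6 genes in each sample of the 4 groups (points), with the group mean (line) and SD (bar); each panel has its own axis from 0. DDIT4, TIGAR and BAX were lower with INK128 in every A549 sample and higher in every SK-MEL-147 sample, while CDKN1A overlapped in A549 and SLC7A5 and SESN2 overlapped in SK-MEL-147.

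Biosynthetic genes fell in both lines, and those that differed mostly fell further in SK-MEL-147. Of 29 genes of serine, folate and nucleotide synthesis, 20 fell in A549 and 24 in SK-MEL-147. The difference was lower for 10 and higher for 3, with a median of -0.41 (44.8% called, all genes 14%). These counts were 7 to 13 and 3 when any 1 sample was left out. PPAT, the first enzyme of purine synthesis, went from 59.5 ± 1.86 to 39.1 ± 1.52 CPM in A549 and, in SK-MEL-147, from 66.6 ± 10.0 to 19.3 ± 3.13 CPM (difference -1.18 ± 0.20, adjusted p = 0.00141). PAICS, a later purine enzyme, fell in SK-MEL-147 from 418.6 ± 89.3 to 140.3 ± 20.4 CPM and measured 368.4 ± 18.7 and 272.9 ± 5.68 CPM in A549, where it was not called. PSAT1, an aminotransferase of serine synthesis, fell from 286, 293 and 292 CPM to 68.9, 67.7 and 60.7 CPM in A549 and from 129, 185, 146 and 154 CPM to 20.7, 15.7, 22.8 and 20 CPM in SK-MEL-147. All PSAT1 groups were apart within a line, and the difference was -0.81 ± 0.19 (adjusted p = 0.0102). GLDC and ALDH1L2 were among those with a higher difference; GLDC, the glycine decarboxylase, fell in A549 from 53.4 ± 3.33 to 16.8 ± 1.61 CPM and was near 1 CPM in SK-MEL-147.

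Lipid synthesis genes showed the same order. Of 26 cholesterol genes, 20 fell in A549 and 22 in SK-MEL-147. The difference was lower for 4, FDPS, FDFT1, SQLE and MSMO1, and higher for 1, TM7SF2, with a median of -0.53. The share called was 19.2%, against 14% of all genes. TM7SF2 lost its call in 16 of 27 alternatives, 11 of them leaving out 1 sample. With the replicate block the lower calls were 10, and they ranged from 2 to 8 when any 1 sample was left out, with 8 without SK-MEL-147 control replicate 1 and 2 without A549 control replicate 1 or 3, A549 INK128 replicate 2 or SK-MEL-147 control replicate 2. SQLE, squalene epoxidase, held 119, 102 and 100 CPM in A549 controls and 72.8, 85.9 and 75.3 CPM with INK128, against 42.4, 65.3, 61.1 and 56.2 CPM and 13.04, 14.1, 16.1 and 17.9 CPM in SK-MEL-147. Both lines' groups were apart, and the SQLE fall was larger in SK-MEL-147 by 1.42 log2 (difference -1.42 ± 0.21, adjusted p = 0.000596). ACACA, the acetyl-CoA carboxylase that commits carbon to fatty acids, fell in SK-MEL-147 from 91.5 ± 19.8 to 28.6 ± 4.67 CPM and was not called in A549, at 132.2 ± 5.67 and 103.8 ± 17.3 CPM (difference -1.33 ± 0.25, adjusted p = 0.00283). The lamin B receptor gene LBR, whose product also carries a sterol reductase domain, fell in A549 from 148, 152 and 157 CPM to 99.9, 102 and 104 CPM and in SK-MEL-147 from 102, 128, 142 and 132 CPM to 31.6, 28.9, 27.5 and 29.6 CPM (difference -1.52 ± 0.15, adjusted p = 6.35e-05).

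Of 72 cytosolic ribosomal protein genes, 68 rose in A549 and 54 rose and 2 fell in SK-MEL-147, and 4 differed, RPL22, RPLP1, RPS9 and RPS27A, all lower in SK-MEL-147 (5.56% against 7.48% of all genes). That number was 15 without SK-MEL-147 INK128 replicate 1, 10 without control replicate 1, 6 with the replicate block, and 2 without A549 control replicate 1 or 3, A549 INK128 replicate 2, SK-MEL-147 control replicate 2 or INK128 replicate 3. Without A549 INK128 replicate 1 several of the A549 rises were no longer called, among them RPL6, RPL11 and RPS24 (adjusted p = 0.256, 0.130 and 0.164 by edgeR). Ribosomal protein genes have many near-identical processed copies, so their counts are uncertain. EEF2, the elongation factor whose mRNA is a classical mTOR target, rose by 1.05 log2 in A549 and 0.66 in SK-MEL-147, with no called difference (adjusted p = 0.282). Of 39 tested initiation and elongation factor genes, 12 rose and 17 fell in A549 and 4 rose and 17 fell in SK-MEL-147. The difference was lower for 5, EIF4B, EIF4A2, EIF2S3, PABPC1 and EEF1B2 (12.8% against 7.48%), and higher for 0, with a median of -0.32 log2. The lower calls were 3 without A549 control replicate 2 or 3, SK-MEL-147 control replicate 2 or 4 or INK128 replicate 4 and with library size alone, 8 with the replicate block or DESeq2, and 10 without both SK-MEL-147 replicate 1 samples; library size alone gave 1 higher call. EIF4B, a cofactor of the initiation helicase, rose by 1.18 log2 in A549, and its change of 0.26 in SK-MEL-147 was not called (difference -0.92 ± 0.20, adjusted p = 0.00719). EIF4B and other factor genes also have processed copies, so their counts are uncertain. Of 36 ribosome biogenesis genes, 22 fell in A549 and 34 in SK-MEL-147. In the difference 9 were called, all lower in SK-MEL-147 (25% against 7.48% of all genes). The count was 14 without SK-MEL-147 control replicate 1. It was 2 without A549 control replicate 3 or SK-MEL-147 control replicate 2. With library size alone, or with A549 libraries 2-2 and 3 summed, it was 4. It was 4 or 5 without A549 control replicate 1 or 2 or A549 INK128 replicate 2. The same held without SK-MEL-147 control replicate 4 or INK128 replicate 2, 3 or 4. Of 29 chaperone genes, 19 fell in A549 and 26 in SK-MEL-147, and 4 were lower in the difference (13.8% against 7.48% of all genes). The chaperone count was 10 without SK-MEL-147 control replicate 1, 1 with A549 libraries 2-2 and 3 summed, and 2 without any A549 control, A549 INK128 replicate 2, SK-MEL-147 control replicate 2, 3 or 4, or INK128 replicate 2 or 4. CCT3, a subunit of the cytosolic chaperonin, fell from 675.3 ± 16.4 to 469.9 ± 8.79 CPM in A549 and, in SK-MEL-147, from 461.0 ± 56.9 to 196.7 ± 10.5 CPM (difference -0.71 ± 0.15, adjusted p = 0.00719).

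Among inflammatory genes, most called differences were lower in SK-MEL-147. Nuclear factor kappa B activates cytokine and chemokine genes together with its own inhibitors, and senescent cells secrete many of these factors. Of 43 tested genes of the senescence-associated secretory list, 23 rose and 2 fell in A549, and 14 rose and 7 fell in SK-MEL-147. The difference was lower for 13 and higher for 6, with a median of -0.87 (44.2% called, all genes 14%). When any 1 sample was left out these counts were 10 to 14 and 4 to 6, with A549 libraries 2-2 and 3 summed 7 and 3, and without replicate 1 of both SK-MEL-147 groups 8 and 7. CCL2 and CCL5 were among the lower ones, and lost their call in 7 and 12 of 27 alternatives. Without A549 INK128 replicate 1 the CCL2 difference was -5.07, with no called change in A549 (0.56 log2, adjusted p = 0.367 by edgeR). In that fit the CCL5 difference was -5.94, with a rise of 3.52 log2 in A549. The A549 rises of IL1B, MMP2 and MMP14 lost their call in the same fit (adjusted p = 0.0515, 0.170 and 0.483 by edgeR). The A549 rise of TGFB1 gained one (adjusted p = 0.0282 by edgeR). TNFAIP3 (chr6:137867188-137883312), which encodes A20, an inhibitor of NF-kappa B signalling, rose in A549 from 12.6, 9.28 and 10.7 CPM to 81.5, 55.6 and 94.7 CPM. In SK-MEL-147 it held 12.97, 3.92, 3.79 and 3.51 CPM in controls and 3.10, 3.56, 5.26 and 5.81 CPM with INK128. The A549 groups were far apart and the SK-MEL-147 groups overlapped; the difference was -3.29 ± 0.56 (adjusted p = 0.00152).

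The interleukins and CXCL8 were chosen after their values were seen. CXCL8, the neutrophil chemokine interleukin 8, rose in A549 from 20.8, 14.4 and 18.2 CPM to 209, 100 and 183 CPM, while the SK-MEL-147 groups overlapped, at 11.3, 5.24, 3.91 and 2.93 CPM and 7.98, 6.64, 13.2 and 6.70 CPM. Its difference was -2.66 ± 0.54 (adjusted p = 0.00463). IL6 rose in A549 from at most 0.269 CPM to 2.50, 1.38 and 2.60 CPM, with a difference of -3.46 ± 0.89 (adjusted p = 0.0173). IL1A rose in both lines, to 2.73, 1.08 and 1.44 CPM in A549 and to 77.6, 61.4, 55.7 and 67.6 CPM in SK-MEL-147. The IL1A difference of -3.19 ± 0.87 (adjusted p = 0.0231) lost its call without A549 INK128 replicate 1 (adjusted p = 0.0504), whereas CXCL8 and IL6 kept theirs (adjusted p = 0.00941 and 0.0297). SOD2 (chr6:159669057-159745186), the mitochondrial superoxide dismutase, which both NF-kappa B and FOXO factors can activate, rose in A549 from 54.1, 58.5 and 60.0 CPM to 240, 195 and 332 CPM, against 22.02, 28.96, 28.5 and 24.5 CPM and 15.5, 22.5, 23.9 and 21.4 CPM in SK-MEL-147. The SK-MEL-147 groups overlapped, and the difference was -2.47 ± 0.25 (adjusted p = 6.35e-05).

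Among the secretory genes with a higher response in SK-MEL-147, IGFBP6, which binds insulin-like growth factors, rose there from 24.1 ± 4.05 to 94.4 ± 24.3 CPM and measured 109.2 ± 6.59 and 78.0 ± 16.9 CPM in A549 (difference 2.46 ± 0.28, adjusted p = 0.0001). PLAU (chr10:73909177-73917497), urokinase, rose in A549 from 199, 169 and 152 CPM to 265, 295 and 346 CPM and fell in SK-MEL-147 from 17.1, 19.4, 10.2 and 14.2 CPM to 5.60, 4.94, 2.81 and 1.59 CPM. Its groups did not overlap in either line, and the difference was -2.82 ± 0.42 (adjusted p = 0.000692).

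Metallothioneins are small cysteine-rich proteins that bind zinc and copper. Of 7 tested genes of that list, which includes their activator MTF1, 4 rose in A549 and 0 changed in SK-MEL-147 by edgeR. The difference was lower for 2, MT2A and MT1F (28.6% against 7.48% of all genes). The lower calls were 5 with the replicate block, 4 without A549 INK128 replicate 2 or SK-MEL-147 INK128 replicate 1, and 1 without A549 control replicate 2 or 3 or A549 INK128 replicate 1, each time with MT1F lost. MT2A (chr16:56608199-56609497) held 52.8, 27.4 and 21.4 CPM in A549 controls and 299, 176 and 183 CPM with INK128, and 257, 354, 349 and 318 CPM against 451, 308, 291 and 253 CPM in SK-MEL-147. A549 thus moved from a low level toward the level that SK-MEL-147 had in both groups, and the difference was -2.67 ± 0.40 (adjusted p = 0.000691; -2.38 and adjusted p = 0.00127 without A549 INK128 replicate 1). MT1X rose in A549 from 5.08, 3.13 and 2.14 CPM to 20.6, 9.32 and 12.5 CPM, with a difference of -1.39 ± 0.55 that was not called (adjusted p = 0.105). MT1E and MT1M were at 0 in the A549 INK128 samples 2 and 3 and above 0 in sample 1 alone, at 9.43 and 0.455 CPM. Metallothionein genes are near-identical in sequence, so reads may be split between them.

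The promoters of 4 genes that rose in A549 are shown, as the 250 bases before the start in RefSeq's table for GRCh38.p14, read 5′ to 3′ on the plus strand, since motifs of known activators are within them. In the metallothionein promoters capitals mark the metal response core TGCNCNC on either strand, which MTF1 recognises. In the others they mark the NF-kappa B-like motif GGANNTTCC on either strand and, in CXCL8, also the AP-1 motif TGANTCA.
MT2A, chr16:56608334-56608583: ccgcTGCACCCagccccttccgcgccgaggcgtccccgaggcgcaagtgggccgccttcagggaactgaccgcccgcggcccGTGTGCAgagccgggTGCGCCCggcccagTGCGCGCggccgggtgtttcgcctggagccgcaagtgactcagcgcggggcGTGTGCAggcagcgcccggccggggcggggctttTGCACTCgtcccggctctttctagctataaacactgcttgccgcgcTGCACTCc
MT1X, chr16:56682220-56682469: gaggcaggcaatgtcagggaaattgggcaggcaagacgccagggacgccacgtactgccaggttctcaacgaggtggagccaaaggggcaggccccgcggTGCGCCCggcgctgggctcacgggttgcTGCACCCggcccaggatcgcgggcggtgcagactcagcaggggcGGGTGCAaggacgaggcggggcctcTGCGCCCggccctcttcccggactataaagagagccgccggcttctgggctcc
TNFAIP3, chr6:137867009-137867258: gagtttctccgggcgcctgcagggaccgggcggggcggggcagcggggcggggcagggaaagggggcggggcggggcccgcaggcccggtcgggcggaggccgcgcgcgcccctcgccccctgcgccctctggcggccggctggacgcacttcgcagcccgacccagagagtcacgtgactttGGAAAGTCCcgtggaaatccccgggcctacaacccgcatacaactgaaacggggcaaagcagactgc
CXCL8, chr4:73740319-73740568: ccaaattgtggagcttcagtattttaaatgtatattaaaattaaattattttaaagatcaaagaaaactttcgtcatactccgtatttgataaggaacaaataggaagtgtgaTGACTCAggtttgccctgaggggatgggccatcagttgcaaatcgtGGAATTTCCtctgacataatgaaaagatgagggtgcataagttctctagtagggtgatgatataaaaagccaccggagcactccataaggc

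The MT2A window holds 7 matches of the metal response core and the MT1X window 4. At least 3 matches occur in 5.74% of the 27305 promoter windows of that length in the table, and at least 1 in 48.4%. The NF-kappa B-like motif occurs in 3.88% of all windows and the AP-1 motif in 6.60%. Of 43 tested secretory genes, 32 have a window in the table, and 10 of these hold the NF-kappa B-like motif, among them CXCL8, IL6, TNFAIP3, NFKBIA, ICAM1 and CXCL1. A match is a description of the letters and not evidence of binding. The motifs were chosen after the expression values were seen, and the genes shown were picked because they hold them. Among named genes the NF-kappa B-like motif was also in SESN2, NR4A3 and TAP1, with higher differences, and in DUSP6 and RICTOR, with lower ones. DPY19L2 held 8 matches of the metal response core. Of 6 tested metallothionein genes, 2, MT2A and MT1X, have a window in the table. E-box, cAMP response and ATF4-CEBP motifs were also counted and are not described.

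**Figure D4:**
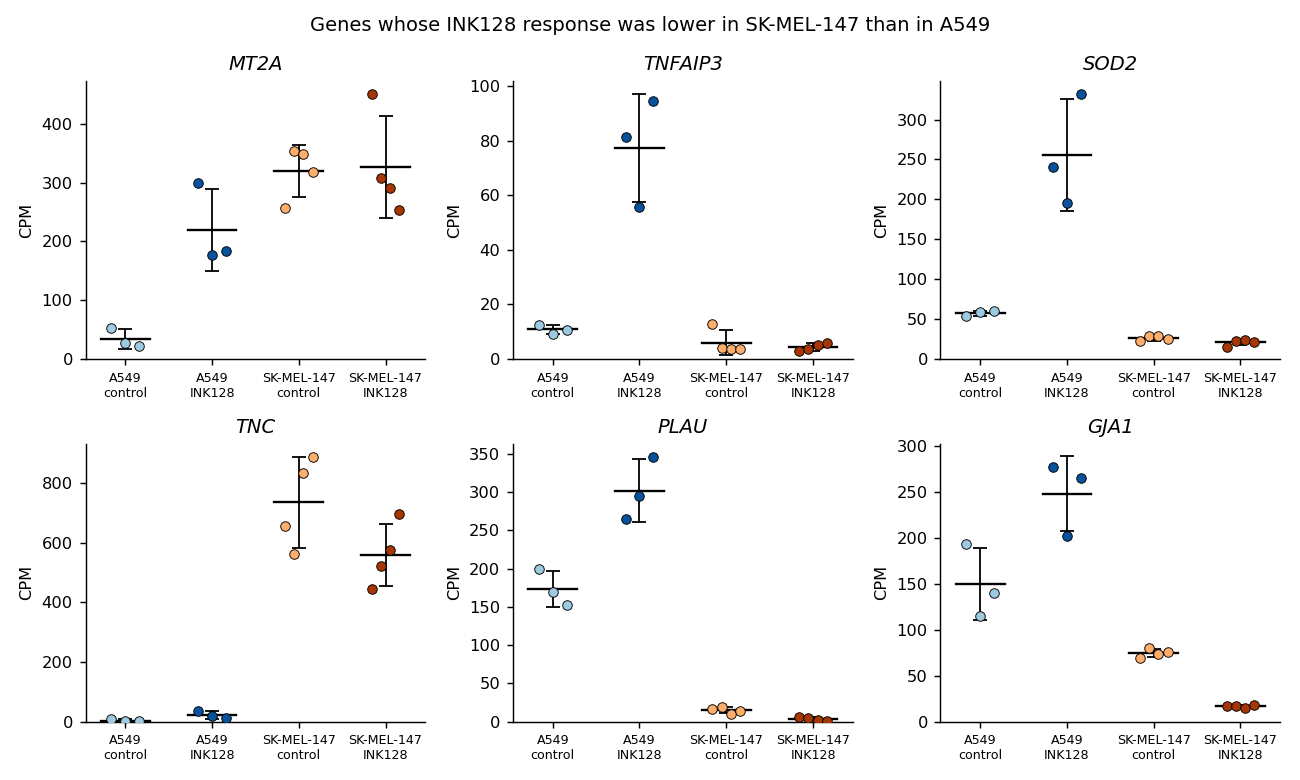
CPM of 6 genes in each sample of the 4 groups (points), with the group mean (line) and SD (bar); each panel has its own axis from 0. All 6 were higher with INK128 in every A549 sample, and in SK-MEL-147 PLAU and GJA1 were lower in every INK128 sample while MT2A, TNFAIP3, SOD2 and TNC overlapped between groups.

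Single genes of cell junctions and matrix differed as well. GJA1 (chr6:121435577-121449727), which encodes the gap junction protein connexin 43, rose in A549 from 193, 115 and 140 CPM to 277, 202 and 265 CPM and fell in SK-MEL-147 from 69.1, 80.4, 73.8 and 75.7 CPM to 17.4, 16.9, 14.9 and 17.9 CPM. No groups overlapped within a line, and the difference was -2.89 ± 0.22 (adjusted p = 8.73e-06). TNC, the matrix glycoprotein tenascin C, rose in A549 from 7.90, 3.02 and 1.19 CPM to 35.9, 18.8 and 10.9 CPM and held 656, 562, 835 and 888 CPM and 446, 521, 577 and 695 CPM in SK-MEL-147. The TNC difference was -2.84 ± 0.62 (adjusted p = 0.0073), and -2.30 (adjusted p = 0.0159) without A549 INK128 replicate 1. COL12A1, a fibril-associated collagen, rose in A549 from 13.8 ± 3.75 to 32.3 ± 7.06 CPM and fell in SK-MEL-147 from 242.7 ± 36.3 to 124.1 ± 48.0 CPM (difference -2.20 ± 0.38, adjusted p = 0.00165). LAMB1, a laminin chain, had the same pair of directions (difference -0.91 ± 0.17, adjusted p = 0.00281). COL18A1, a basement membrane collagen, rose in both and further in SK-MEL-147, from 62.1 ± 10.6 to 350.8 ± 108 CPM, against 205.6 ± 14.5 to 358.8 ± 122 CPM in A549 (difference 1.69 ± 0.36, adjusted p = 0.00641).

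The epithelial list leaned the other way, with 5 of 20 tested genes higher in the difference (25% against 6.48% of all genes). Only 6 of the 20 reached 5 CPM in the higher group of each line. The rest were hardly expressed in at least 1 line, where a response cannot be measured well. By edgeR 0 were lower, and with DESeq2 too. KRT8, a keratin of simple epithelia, fell in A549 from 3316, 4935 and 5735 CPM to 1611, 1734 and 1909 CPM and rose in SK-MEL-147 from 7.50, 7.94, 5.84 and 5.41 CPM to 28.2, 37.5, 26.4 and 26.5 CPM. The groups were apart in both lines, at levels far apart between lines, and the difference was 3.56 ± 0.28 (adjusted p = 8.73e-06); KRT8 has many processed copies, so its count is uncertain. UPK3B, a uroplakin, fell in A549 from 30.8, 35.6 and 45.5 CPM to 2.04, 1.42 and 1.37 CPM and stayed at or below 0.238 CPM in SK-MEL-147. GPC1, a heparan sulphate proteoglycan at the cell surface, fell in A549 from 294.9 ± 56.3 to 113.2 ± 30.3 CPM and rose in SK-MEL-147 from 55.3 ± 21.2 to 195.9 ± 31.2 CPM (difference 3.20 ± 0.37, adjusted p = 0.000112). HLA-DMB, which loads peptides on MHC class II, had the largest difference among the 78 genes that rose in SK-MEL-147 and fell in A549, 3.96 ± 0.55 (adjusted p = 0.000413), from 9.74 ± 5.10 to 45.7 ± 11.1 CPM and from 5.55 ± 1.52 to 1.74 ± 0.645 CPM.

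Immediate early genes, which respond to mitogens and stress within minutes, rose in SK-MEL-147 more than in A549. Of 22 tested, 13 rose in SK-MEL-147 and 0 fell there, against 3 and 2 in A549. The difference was higher for 7 and lower for 1, MAFF, with a median of 0.73 (36.4% called, all genes 14%). MAFF was not called with A549 libraries 2-2 and 3 summed (adjusted p = 0.0510) or with library 2 alone (0.0501). The higher calls numbered 6 to 8 when any 1 sample was left out and 10 without replicate 1 of both SK-MEL-147 groups. NR4A2 (chr2:156324432-156342348), an orphan nuclear receptor, rose in SK-MEL-147 from 2.89, 2.67, 2.52 and 3.96 CPM to 24.8, 97.6, 93.7 and 97.8 CPM, and held 3.93, 2.82 and 4.45 CPM and 5.49, 3.86 and 6.06 CPM in A549. Replicate 1 rose least, and the A549 groups overlapped; the difference was 4.24 ± 0.54 (adjusted p = 0.000241). Its relatives NR4A1 and NR4A3 rose in SK-MEL-147 and fell in A549. ETV4, a transcription factor downstream of ERK, fell in SK-MEL-147 from 28.9 ± 1.57 to 13.5 ± 4.90 CPM and measured 38.2 ± 10.4 and 58.6 ± 14.5 CPM in A549 (difference -1.71 ± 0.35, adjusted p = 0.00463).

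Other genes rose in SK-MEL-147 with no call in A549. SOX2, a pluripotency transcription factor, rose from 0.430, 0.203, 0.279 and 0.907 CPM to 5.33, 22.3, 7.89 and 7.29 CPM, and held 7.39, 6.31 and 7.18 CPM and 7.61, 4.82 and 8.76 CPM in A549. SOX2 thus reached about the A549 level, with a difference of 4.52 ± 0.68 (adjusted p = 0.000731). PDE3A, a phosphodiesterase of cAMP and cGMP, went from 0.544, 0.473, 0.279 and 0.454 CPM to 0.298, 10.9, 12.97 and 8.76 CPM, so replicate 1 did not share the rise of the other 3 (difference 5.27 ± 0.94, adjusted p = 0.00219). CYP4F3, a fatty acid hydroxylase, went from 2.00 ± 1.84 to 41.4 ± 10.3 CPM in SK-MEL-147; its close paralog CYP4F2 moved with it, and reads may be split between them. ATOH8, a basic helix-loop-helix factor, went from 0.238 ± 0.0444 to 13.2 ± 7.33 CPM.

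Genes that fell in SK-MEL-147 with no call in A549 included MYO5B, a myosin of vesicle recycling, from 15.5 ± 1.56 to 3.09 ± 0.646 CPM against 11.6 ± 2.10 and 12.1 ± 0.573 CPM in A549 (difference -2.39 ± 0.25, adjusted p = 6.36e-05). GALC, the lysosomal galactosylceramidase, fell there from 19.2 ± 1.03 to 4.82 ± 0.544 CPM and measured 46.9 ± 5.75 and 60.2 ± 12.8 CPM in A549. SLC16A1, the lactate carrier MCT1, fell from 125.1 ± 8.49 to 39.9 ± 4.44 CPM against 103.2 ± 13.8 and 99.8 ± 2.50 CPM (difference -1.60 ± 0.16, adjusted p = 6.35e-05). Of the reverse kind, PC, the mitochondrial pyruvate carboxylase, fell in A549 from 41.6 ± 13.99 to 10.6 ± 2.94 CPM and measured 19.2 ± 2.24 and 18.03 ± 5.01 CPM in SK-MEL-147 (difference 1.87 ± 0.37, adjusted p = 0.0038). TOB1, an antiproliferative adaptor of mRNA deadenylation, fell in A549 from 123.2 ± 28.3 to 52.8 ± 9.36 CPM (difference 1.66 ± 0.30, adjusted p = 0.00248; 0.0501 with A549 library 2 alone).

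FOXO targets rose in both lines, 18 of 25 in each, and differed in both directions, 5 higher and 4 lower (2 lower without A549 control replicate 2). The share of that list called was 36%, against 14% of all genes. TXNIP, a thioredoxin inhibitor that limits glucose uptake, rose in A549 from 0.807, 0.742 and 0.701 CPM to 34.6, 12.5 and 11.4 CPM and in SK-MEL-147 from 42.0, 36.2, 27.6 and 28.2 CPM to 155, 259, 194 and 211 CPM. The groups were apart in both lines and the rise was larger in A549 (difference -2.07 ± 0.50, adjusted p = 0.0122; -1.38 and adjusted p = 0.00754 without A549 INK128 replicate 1; not called with limma voom, adjusted p = 0.0515). FBXO32, the ubiquitin ligase atrogin-1, rose by 3.23 and 1.45 log2 (difference -1.78 ± 0.46, adjusted p = 0.0181; not called without A549 control replicate 2 or 3). CAT, SESN1, SESN3 and PIK3IP1 rose in SK-MEL-147 and fell in A549, PIK3IP1 without a called fall when A549 INK128 replicate 1 was left out (adjusted p = 0.146). Of 43 lysosomal genes, 18 rose in A549 and 22 in SK-MEL-147. In the difference 6 were higher and 3 lower (20.9% called, all genes 14%). The lower ones were 5 without A549 INK128 replicate 2. The higher ones were 10 without either replicate 1 of SK-MEL-147 and 16 without both. GAA, acid alpha-glucosidase, rose from 73.8 ± 8.11 to 151.0 ± 56.0 CPM in A549 and, in SK-MEL-147, from 4.71 ± 1.77 to 30.8 ± 5.02 CPM (difference 1.67 ± 0.37, adjusted p = 0.00719). TFEB, a master regulator of lysosomal genes that mTOR complex 1 keeps in the cytoplasm, rose in SK-MEL-147 from 0.265 ± 0.0722 to 1.58 ± 0.372 CPM and held 4.28 ± 0.876 and 5.09 ± 0.173 CPM in A549. SQSTM1, the autophagy receptor p62, was not called in the difference (0.71 ± 0.31, adjusted p = 0.139) except with the replicate block (adjusted p = 0.0335) and with no filter on low counts (adjusted p = 0.033).

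Interferon-stimulated genes rested on few samples. Of 38 tested, 8 were lower in the difference and 1, OAS1, higher (23.7% called, all genes 14%). The lower ones were 3 without A549 INK128 replicate 1 or without A549 control replicate 2. They were 5 without A549 control replicate 1, A549 INK128 replicate 3 or SK-MEL-147 control replicate 2. With A549 libraries 2-2 and 3 summed they were 2. MX2 and IFI44, both antiviral genes at 44.1 ± 4.02 and 44.9 ± 8.68 CPM in SK-MEL-147 controls and below 0.1 CPM on average in A549 controls, had differences of -3.97 ± 1.21 and -4.04 ± 1.07. Without A549 INK128 replicate 1, the library with melanoma-line transcripts, neither was called (adjusted p = 0.292 and 0.0813). OAS1, an activator of RNA decay, fell in A549 from 50.8 ± 12.3 to 8.90 ± 0.508 CPM (difference 2.15 ± 0.41, adjusted p = 0.00324; 0.310 with all 8 groups in 1 fit). Of the 13 protein-coding genes of the mitochondrial genome, 12 rose in A549 and 7 in SK-MEL-147. In the difference 5 were lower (38.5% against 7.48% of all genes). The lower ones were 9 without SK-MEL-147 INK128 replicate 1. They were 2 without A549 control replicate 2, A549 INK128 replicate 1 or SK-MEL-147 INK128 replicate 2. They were 3 without A549 control replicate 3, A549 INK128 replicate 2 or SK-MEL-147 control replicate 3. MT-ND2 measured 3435 ± 490 and 7236 ± 460 CPM in A549 and 2314 ± 456 and 1811 ± 639 CPM in SK-MEL-147.

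**Figure D5:**
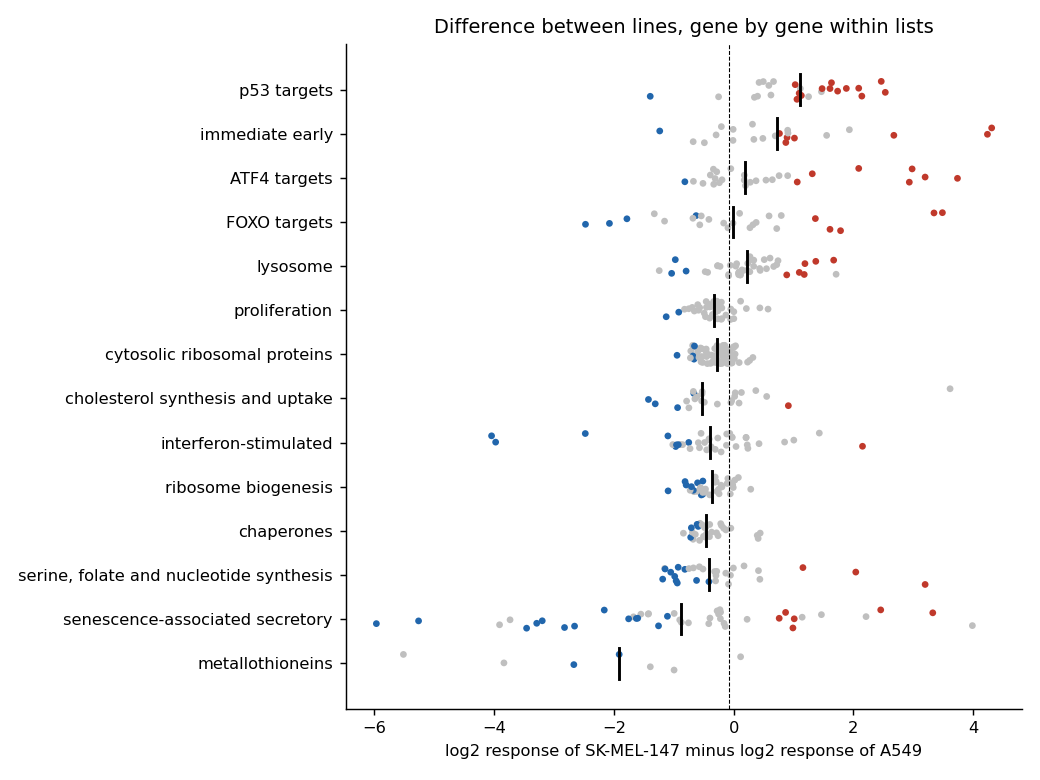
Difference in log2 response (SK-MEL-147 minus A549) for each tested member of 14 gene lists; red and blue mark differences called higher and lower, grey those not called, the short line the list median and the dashed line the median of all genes tested (-0.08). p53 targets and immediate early genes lie mostly to the right, and secretory genes and metallothioneins mostly to the left. Proliferation and ribosomal protein genes have medians of -0.32 and -0.27, left of the dashed line, with few called.

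Genes hardly expressed in one line added 194 calls below 5 CPM in A549 only, 274 in SK-MEL-147 only and 476 in both lines. PLIN4, a lipid droplet protein, rose in SK-MEL-147 from 0.431 ± 0.304 to 7.01 ± 3.90 CPM and stayed below 1 CPM in A549. At the threshold itself, ACLY was just inside, with an adjusted p of 0.049997 and a difference of -0.59, and SCYL3 and SLC45A3 were just outside, with differences of 0.69 and -0.81.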

How the data were processed

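The deposited table held raw read counts per Ensembl gene for 60728 genes and 32 libraries, made by the authors with STAR 2.7.10a and featureCounts on GRCh38.p13, per the submitters' processing notes; the annotation release, strand setting and handling of multi-mapping reads are not given in the sources used here. Per the labels' protocols, the kit was stranded and selected mRNA. Gene symbols came from a gene name table, with GENCODE 29 for the rest (60659 IDs named), and coordinates are GENCODE 29 on GRCh38. The 7 tested copies of the 5.8S ribosomal RNA gene differed by at most 0.821% within a sample, so counts of near-identical copies are not separate measurements. A549 libraries 2 and 2-2 were summed per group. The 4 groups were fitted together with edgeR 4.0.16 in R 4.3.3 (TMM scaling, filterByExpr, quasi-likelihood F test, 2-sided, Benjamini-Hochberg adjustment, calls under 0.05). The difference and each line's own response are contrasts of that fit, and the code was tested on simulated data. CPM are on TMM-scaled totals, except marker maxima and line-transcript levels, which are on unscaled totals, and errors of log2 values are SE.

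Same-numbered samples deviated together (correlations of 0.171 to 0.431 between control and INK128 deviations, all above 0.1), so the numbers were taken to pair the samples. The main fit, which gave the calls, did not use that pairing. A fit with the replicate block was an alternative, and it called 3818 genes in the difference against 2883. Other alternatives were DESeq2 1.42.0, limma 3.58.1 (voom), other scalings, no filter, other treatments of A549 libraries 2, 2-2 and 3, all 8 groups in 1 fit and leaving out each sample. Of these, summing A549 libraries 2-2 and 3 and leaving out replicate 1 of both SK-MEL-147 groups were chosen after seeing the data, as was the count of transcripts of one line in the other. The comparison, gene lists and panel genes were chosen with earlier results of these data known. Named genes were the panel, the largest differences of each response pattern among protein-coding genes at 5 CPM in both lines, the largest among genes hardly expressed in one line, and up to 2 list members per direction. Members named with a count complete it, and others are said to be chosen after their values were seen. Exact permutation tests used scipy 1.17.1, and figures matplotlib 3.10.9.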

Additional observations from a re-analysis of the deposited data

Results flagged for a closer look

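The test of the difference itself called 2883 genes whose INK128 response was unequal in the 2 lines, as described above.

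In 312 groups of 4 SK-MEL-147 samples, 1 sample was set apart from the other 3 by Dixon's criterion in 32 cases, a criterion that chance meets in about 1 group of 20. With INK128, replicate 1 was the sample apart in 11 of them, at 24.8 CPM for NR4A2, 7.29 for EDN1, 27.8 for SPOCD1, 74.03 for GALNT2, 95.1 for SPEG, 1.13 for PIK3IP1, 71.8 for IRS1, 1083 for NPM1, 2766 for MT-ND2, 7.65 for OSGIN1 and 0.476 for EPCAM. Replicate 2 of that group stood apart for KRT8 (37.5 CPM), SOX2 (22.3 CPM), TOB1 (16.4 CPM), MITF (3.69 CPM) and INSR (0.578 CPM), replicate 3 for CPA4 (2.52 CPM) and ITGA7 (1.10 CPM), and replicate 4 for HK2 (34.1 CPM). Among the controls, replicate 1 stood apart for TNFAIP3 (12.97 CPM), ADAMTS16 (24.1 CPM), TMEM59L (5.785 CPM), CDK4 (307.2 CPM), TM7SF2 (7.33 CPM), ACACA (61.9 CPM), CYC1 (71.1 CPM), TAP1 (58.3 CPM) and EPCAM (0.0286 CPM). Control replicate 3 stood apart for UPK3B (0.217 CPM) and SCARA5 (0.0310 CPM), and control replicate 4 for DUSP4 (52.8 CPM) and NQO1 (481.8 CPM). A549 groups, of 3 samples, were not tested.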

How the results depend on the processing

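The number of genes called was 1886 with A549 libraries 2-2 and 3 summed and 1969 to 3899 when 1 sample was left out, the most without SK-MEL-147 INK128 replicate 1. Higher calls were 2400 without replicate 1 of both SK-MEL-147 groups, which gave 1855 lower ones. Lower calls were 951 with A549 libraries 2-2 and 3 summed, 1024 with library 2 alone and 988 to 2120 when 1 sample was left out. Genes called and measured in both lines were 1287 at a minimum of 20 CPM, 1248 with libraries 2-2 and 3 summed and 3000 without both SK-MEL-147 replicate 1 samples. With the replicate block 3818 genes were called, 1667 higher and 2151 lower, and 2752 of the 2883 were among them; DESeq2 called 3696. Library size alone gave 60.9% higher calls and no filter 56.6%, against 46.4%, with the median of all genes moved by 0.11 and 0.12 log2. The uncalled IRS2 difference turned to 0.059 with library 2-2 alone and 0.20 without both SK-MEL-147 replicate 1 samples, and ranged from -0.43 to 0.16 when 1 sample was left out, and INSR from -0.24 to 1.28. The cause was not tested. The naming rule picked 142 called genes, not all of them described here. Of these, 91 kept direction and threshold in every one of the 27 alternatives that gave them a value. Another 51 lost the threshold in at least 1 and 0 reversed. Genes chosen after their values were seen, such as CXCL8, IL6 and FDXR, are not in that count. With 3 or 4 samples a group, and possibly fewer independent ones in A549, small differences were not detectable.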
